A study of Arabidopsis thaliana with 30 samples.

Results

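The 4 genes that encode the DNA demethylases of Arabidopsis thaliana are described here: ROS1 (AT2G36490), DME (AT5G04560), DML2 (AT3G10010) and DML3 (AT4G34060). Members are the ATAC-seq peaks, in 30 deposited peak lists, that overlapped 1 of these genes or the 1000 bp to either side of it. Of 734458 peaks in all lists, 180 did so: 86 at DME, 53 at DML2, 38 at ROS1 and 3 at DML3.

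DNA demethylases of this family are DNA glycosylases that cut 5-methylcytosine out of DNA, after which base excision repair puts an unmethylated cytosine in its place. ROS1 acts through most of the plant body and opposes RNA-directed DNA methylation, DME is best known for its work in the central cell of the female gametophyte that sets up imprinting in the endosperm, and DML2 and DML3 act beside ROS1 in vegetative tissue. ATAC-seq reads accessible chromatin: the transposase Tn5 inserts adapters where DNA is not packed, and a peak is a stretch with more insertions than its surroundings. Transcription was not measured.

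Libraries came in 15 groups of 2. Of these, 12 were 2-week shoots of mutants: ros1-4 (lacks ROS1), rdd-2 (lacks ROS1, DML2 and DML3), drdd (lacks DME as well), met1-9 (the CG maintenance methyltransferase MET1), nrpd1-3 (the largest subunit of RNA polymerase IV, which feeds RNA-directed DNA methylation), gcn5 (a histone acetyltransferase), hda6 (a histone deacetylase), sdg2-4 (an H3K4 methyltransferase), and the doubles nrpd1-3 ros1-4, gcn5 ros1-4, hda6 ros1-4 and sdg2-4 ros1-4. The others were 2-week root, 4-week stem and 2-week shoot of Col-0, the wild-type strain. In stem, organ and age therefore cannot be told apart. The rdd-2 and drdd libraries carry sample numbers from a later range than all other groups. Deposit and genotype therefore cannot be told apart in comparisons between these and any other group. The genotypes could not be checked here, since a peak at a mutated gene says nothing of its product.

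Lists held 17315 peaks (stem replicate 1) to 38392 peaks (met1-9 replicate 1), and their reach differed. At peaks close to the calling threshold (−log10 q under 3) the median fold, the pileup at the summit over the local background of the same library, ran from 1.64 in gcn5 replicate 2 to 2.48 in sdg2-4 replicate 2, so the gcn5 lists took in weaker peaks. Labels call met1-9 shoot, whereas leaf stands in its peak names beside the prefix of another series, and the stem peak names hold words for merged or added data. Marker genes separated the organs in part. The genes of light-harvesting proteins LHCB2.2, LHCB2.1 and LHCB1.3 had peaks in both stem and both shoot libraries of Col-0 and in no root library. Of 4 root markers RHD6, RSL4 and PHT1;1 had peaks in root only and PIN2 in all 3 organs, and the stem markers MYB58, MYB63 and IRX10 also had peaks in all 3 and did not set stem apart. In whole organs, fewer cells with an open site and a less open site in each cell cannot be told apart.

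Peaks of all lists were grouped into sites of 301 bp, each centred on the strongest summit, and a site counted as recurrent where both libraries of at least 1 group had a peak there. The genes held 9 of the 42611 recurrent sites of the genome, and DML3 held none of them. A peak was present in all 30 libraries at 4 of the 9 sites, beside 30.2% of all recurrent sites. The reference gene table carries no strand, so gene ends are given as left (lower coordinate) and right (higher coordinate) on TAIR10, and neither is called a promoter.

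**Figure D1:**
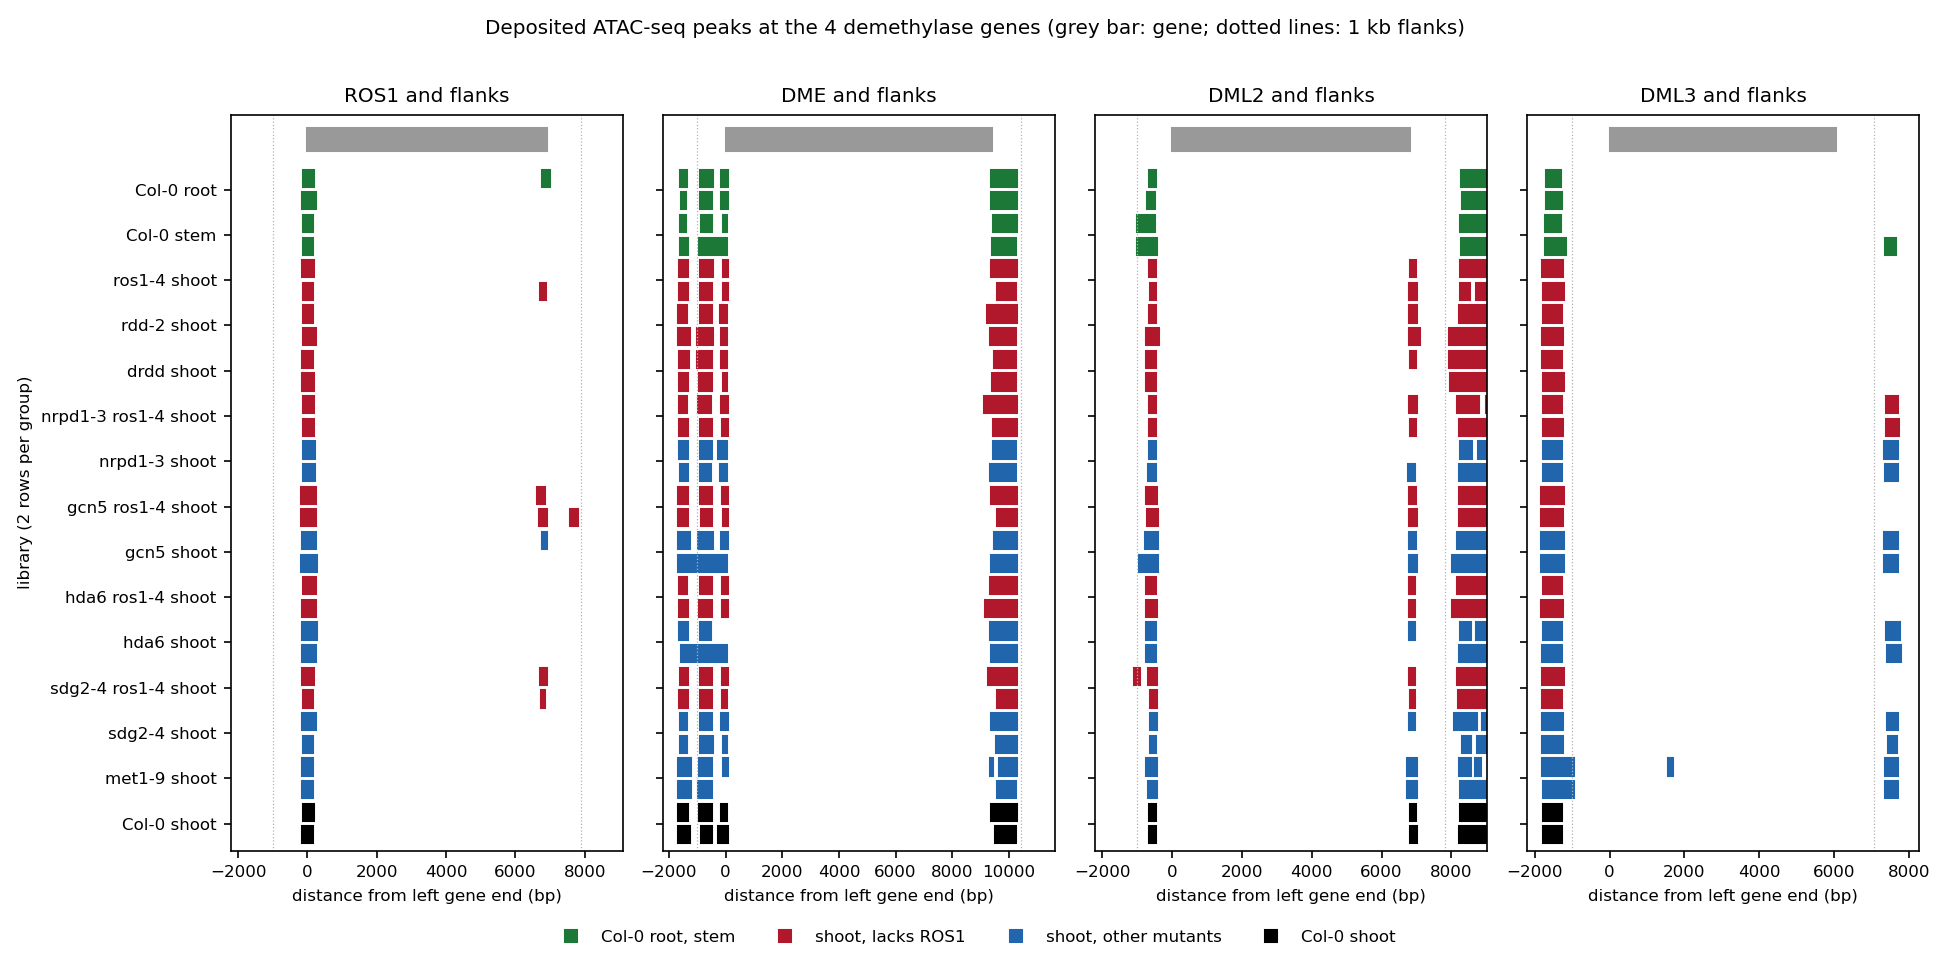
Deposited peaks in each of the 30 libraries (rows, 2 per group, Col-0 shoot lowest) at ROS1, DME, DML2 and DML3, by distance from the left gene end in bp; the grey bar is the gene and dotted lines mark 1 kb flanks. Peaks sit at gene ends and flanks, the interior is nearly empty, and DML3 has peaks within its flanks in met1-9 only.

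The interiors of the genes were nearly free of peaks. More than 300 bp inside its ends, ROS1 and DML2 had a peak in 0 of 30 libraries, DME in 1 (a border of a wide peak in nrpd1-3 ros1-4 replicate 1) and DML3 in 1 (met1-9 replicate 1). Such empty interiors are common: of 731 protein-coding genes of 6000 to 9500 bp, 57.9% had no interior peak in any library and 83.0% had none in either Col-0 shoot library.

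ROS1 carried 1 strong site in every library, at its left end. This site (chromosome 2, 15307771 to 15308071) lies with its summit 14 bp inside the gene and also overlaps the end of the neighbouring gene AT2G36480, so it cannot be given to ROS1 alone. Its fold was lowest in stem replicate 1 at 5.46, had a median of 10.6 over the 30 libraries and was highest in met1-9 replicate 1 at 17.7. A fold belongs to its own list, so ranks were compared instead, as the percentage of the strongest 17315 peaks of each list with a smaller −log10 q.

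By mean rank at the ROS1 left end, nrpd1-3 (84.8 and 91.3) stood at the top of the 15 groups and stem (61.6 and 68.1) at the bottom, and each group overlapped the next one in the order. The groups that lack demethylases and carry no other mutation stood together near the bottom. Next to them stood hda6, which carries ROS1, at 70.0 and 75.1. The ros1-4 libraries had percentiles of 70.1 and 74.7, the rdd-2 libraries of 68.8 and 74.7 and the drdd libraries of 67.8 and 72.1, against 79.1 and 85.1 in Col-0 shoot. None of these 3 groups overlapped Col-0 shoot. The share of the 12881 constant sites of the genome that were lower without overlap was 24.2% for ros1-4, 19.6% for rdd-2 and 16.9% for drdd, so such a difference is frequent.

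Relative to Col-0 shoot, the doubles did not rank lower at the ROS1 left end. The libraries of nrpd1-3 ros1-4 had percentiles of 81.5 and 84.3, gcn5 ros1-4 of 81.3 and 81.9 and sdg2-4 ros1-4 of 78.6 and 85.7, all overlapping Col-0 shoot. In hda6 ros1-4 the site ranked higher than in Col-0 shoot, at 85.3 and 89.6 (24% of constant sites did so), while in hda6 it ranked lower, at 70.0 and 75.1 (22.4%). The hda6 libraries and their doubles carry peak names from different number ranges, so that preparation and allele cannot be told apart there. Relative to its own single mutant, nrpd1-3 ros1-4 lay lower without overlap (19.2% of constant sites) and hda6 ros1-4 higher without overlap (20.9%), while gcn5 ros1-4 and sdg2-4 ros1-4 overlapped their singles. Stem was lower than Col-0 shoot (28.1%), and root, nrpd1-3, gcn5, sdg2-4 and met1-9 overlapped it. No test was made on these ranks, since an exact permutation of 2 libraries against 2 gives no p below 0.333.

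**Figure D2:**
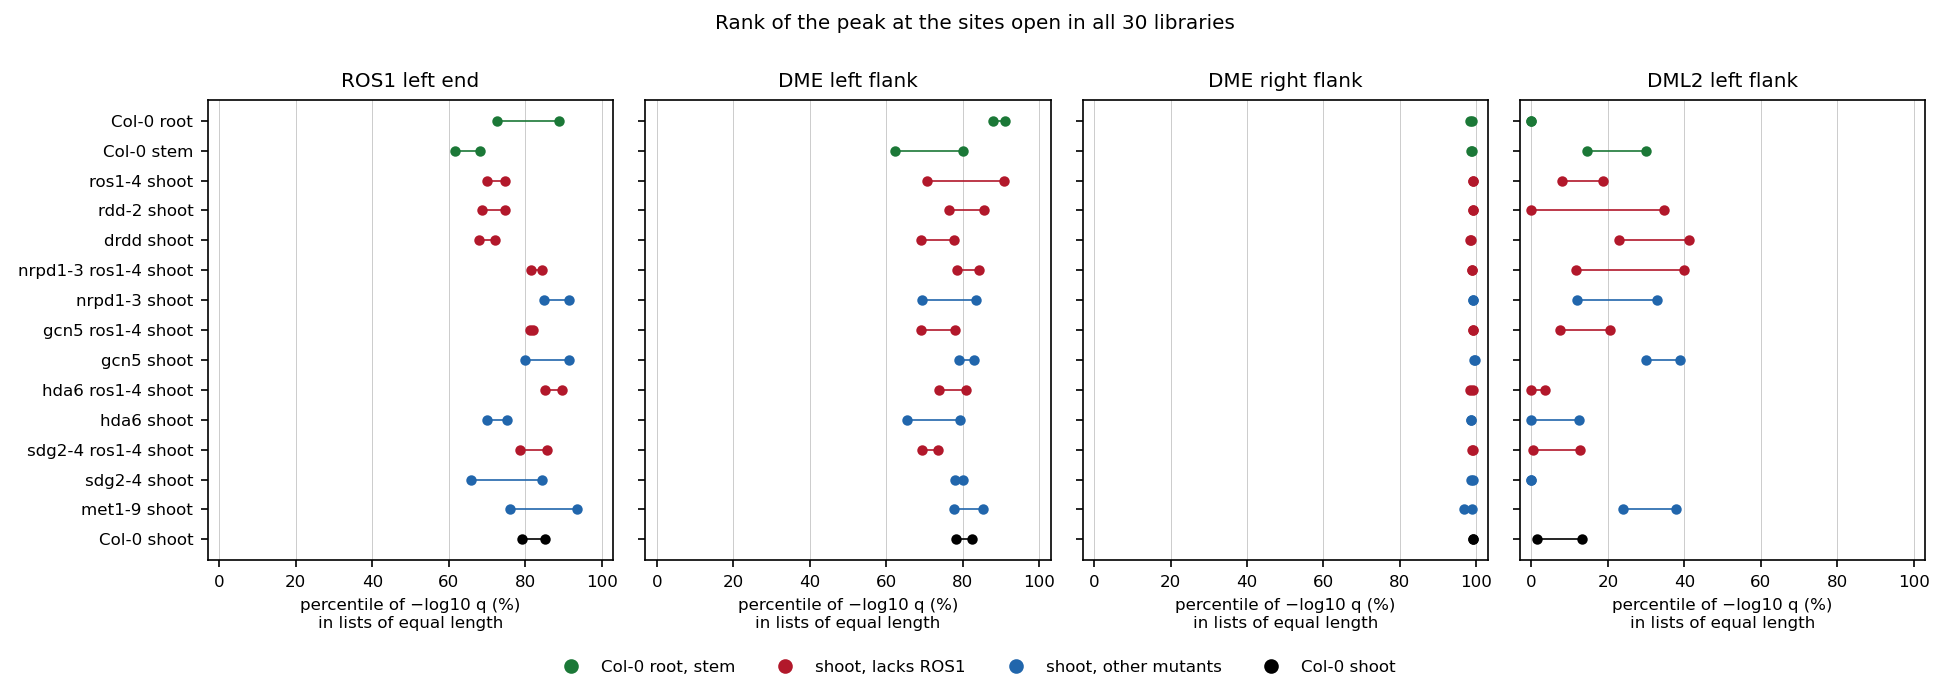
Percentile of −log10 q within the strongest 17315 peaks of each list (x, percent) at the 4 sites with a peak in all 30 libraries, for 15 groups (y, Col-0 shoot lowest); each dot is 1 library, a line joins the 2 of a group, and 0 means outside or at the foot of the shortened list. At the ROS1 left end ros1-4, rdd-2, drdd, hda6 and stem lie below Col-0 shoot, the DME right flank lies at the far right in every group, and the DML2 left flank spreads from 0 to 41.2.

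The other end of ROS1 was open in few libraries. The right-end site (chromosome 2, 15314594 to 15314894, summit 63 bp inside the gene) had a peak in 7 of 30 libraries and lies 2979 bp from the next gene. Folds were 4.86 in ros1-4 replicate 2, 2.73 and 3.59 in gcn5 ros1-4, 4.09 and 3.09 in sdg2-4 ros1-4, 2.19 in gcn5 replicate 1 and 2.26 in root replicate 1. No Col-0 shoot or stem library had it. Of the 26 shoot libraries, 5 of 14 without ROS1 carried the peak and 1 of 12 with ROS1 did. All 7 peaks were weak within their own lists, ranking 18479 from the strongest or lower, which is beyond the length of the shortest list.

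Counted as gained where both libraries of a group and neither Col-0 shoot library had a peak, the ROS1 right end was gained in gcn5 ros1-4 and in sdg2-4 ros1-4. Over all recurrent sites, gcn5 ros1-4 gained 14.2% and sdg2-4 ros1-4 9.43%. Against its own single mutant, sdg2-4 ros1-4 gained the site too (5.37% of sites gained), while gcn5 replicate 1 also carried it and gcn5 ros1-4 therefore did not. The peak names of sdg2-4 and of its double come from different number ranges, so preparation and allele cannot be told apart there. With a −log10 q of at least 10, or with lists of equal length, neither gain relative to Col-0 shoot was called, and where a peak had to cover at least 150 bp of the site only that in gcn5 ros1-4 was. A second ROS1 window, in the right flank 644 bp from the gene, had a peak of fold 2.90 in gcn5 ros1-4 replicate 2 alone and was not recurrent.

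Across the 13 shoot groups, the presence of peaks was compared between the 7 groups that lack ROS1 and the 6 that carry it. The value of a group was the share of its 2 libraries with a peak. These groups differ in other genes too, and the test did not use the 5 matched pairs with and without ros1-4. In these pairs the ROS1 right end had a peak in 1 ros1-4 library and 0 Col-0 shoot libraries. Doubles and singles had 2 and 1 for gcn5, 2 and 0 for sdg2-4, and 0 and 0 for nrpd1-3 and hda6. At the ROS1 right end the groups without ROS1 had a peak in 35.7% of libraries and those with it in 8.33%, a difference of 27.4 percentage points (exact permutation test over 1716 assignments, two-sided, p = 0.315). The DML2 right end differed by 17.9 points (92.9% without ROS1, 75% with it, exact p = 0.266), a difference that turned to −33.3 points with lists of equal length, and the DME left end by 16.7 points (100% and 83.3%, exact p = 0.192). The DME right end was present in 11 of 14 libraries without ROS1 and in 10 of 12 with it (exact p = 1). The 4 constant sites cannot differ in this measure. None of the 9 sites passed: the Benjamini-Hochberg adjusted p over 40712 elements was 1 at each. Over the genome 1.25% of elements had an unadjusted p under 0.05 and 0 an adjusted one, and 0 of the 9 sites had either. The smallest p of this contrast is 0.000583, which passes the adjustment only where many elements share it, so failing it does not show that the groups are alike.

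Setting the groups that lack DML2 and DML3 (rdd-2 and drdd) against the 11 other shoot groups allows no p below 0.0128. This is too large for a few sites to pass the adjustment, so the values stand as a description. Both groups also carry the later sample numbers, so deposit and alleles cannot be told apart here. The ROS1 right end had a peak in 0 of 4 libraries without DML2 and DML3 and in 6 of 22 others (exact permutation test over 78 assignments, two-sided, p = 0.769). At the DME right end these counts were 4 of 4 and 17 of 22 (exact p = 0.487). Of the 9 sites 0 had an unadjusted p under 0.05, and in the genome 0.565% of elements did. DME is lacking in drdd alone, where 1 group against 12 gives no p below 0.0769, so no test was made for it.

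DME was the member with the most open sites. Its right flank (chromosome 5, 1318910 to 1319210) held the peak with the highest −log10 q of the 4 genes in every list, a wide one of 608 to 1167 bp that also covers part of SIR, which encodes sulfite reductase. The fold was lowest in stem replicate 1 at 10.9, had a median of 15.4 and was highest in sdg2-4 ros1-4 replicate 2 at 19.2, and in its own list the peak stood at the 98.5th to 99.7th percentile. So near the top of a list percentiles differ little by construction. Its rank from the strongest peak ran from 69 in gcn5 replicate 2 through a median of 180 to 579 in met1-9 replicate 1. Relative to Col-0 shoot in lists of equal length it stood higher without overlap in 4 groups (ros1-4, rdd-2, gcn5 ros1-4 and gcn5) and lower in 7, and 3 groups overlapped. Shares of constant sites that did so ran from 17% to 27.9% in the 4 groups and from 16.9% to 37.4% in the 7.

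The same wide peak reached the DME right end (chromosome 5, 1318331 to 1318631) in 24 libraries. In 5 others, the second replicates of ros1-4, gcn5 ros1-4, sdg2-4 ros1-4, sdg2-4 and met1-9, the peak began nearer to SIR and the end of DME had none. In met1-9 replicate 1 a separate weak peak of fold 2.29 lay there. These values describe where the caller put the border of a peak.

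On its left side DME had a pair of sites. The left flank (chromosome 5, 1308291 to 1308591, 508 bp from the gene) had a peak in all 30 libraries, with fold from 4.35 in stem replicate 1 through a median of 8.00 to 9.59 in ros1-4 replicate 1. Percentiles were 88.0 and 91.1 in root, against 82.5 and 78.3 in Col-0 shoot. Root thus stood first of the 15 groups and did not overlap the second, met1-9. Of the constant sites 26.9% were higher without overlap in root, and the further order of groups overlapped step by step down to stem (62.4 and 80.1). Lower percentiles without overlap were found in drdd (69.2 and 77.8), gcn5 ros1-4 (78 and 69.2) and sdg2-4 ros1-4 (69.4 and 73.5), where 16.9%, 29.6% and 31.5% of constant sites did the same.

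The DME left end (chromosome 5, 1308943 to 1309243), with its summit 6 bp outside the gene, had a peak in 28 libraries and none in hda6 replicate 1 and met1-9 replicate 2. Its fold ran from 2.84 in drdd replicate 1 to 8.03 in gcn5 replicate 2, where a single peak of 1745 bp covered flank and end together. In drdd, the genotype without DME, the folds were 2.84 and 3.10, beside 4.95 and 3.87 in Col-0 shoot. In rdd-2, which carries DME, they were 3.41 and 3.43. Each fold belongs to its own list, so these values give no order of the groups. In lists of equal length the percentiles were 0 and 6.12 in drdd, 18.7 and 21.8 in rdd-2 and 26.4 and 54.9 in Col-0 shoot. Groups that carry DME also stood low, with 0 and 0 in gcn5 ros1-4 and 1.06 and 3.06 in hda6 ros1-4. A low rank was therefore not particular to drdd, and no share over all sites was taken for it.

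DML2 was open at 1 site in its left flank in every library, and its level there was low. The left-flank site (chromosome 3, 3081023 to 3081323, 412 bp from the gene) had folds from 2.81 in root replicate 1 through a median of 5.20 to 8.74 in met1-9 replicate 1. Its percentiles in lists of equal length were 38.8 and 30.0 in gcn5, 22.9 and 41.2 in drdd, 24.1 and 37.8 in met1-9 and 14.5 and 30.0 in stem, against 1.51 and 13.3 in Col-0 shoot. These 4 groups lay above Col-0 shoot without overlap, as did 27.7% (gcn5), 23.1% (drdd), 13.2% (met1-9) and 32.7% (stem) of constant sites. In root and sdg2-4 the site was not among the strongest 17315 peaks of either library. On this scale it lay lower there than in Col-0 shoot (37.4% and 26.4% of constant sites). Col-0 shoot replicate 1 was itself near the limit, at rank 16940. As percentiles of the full list, root (10.6 and 19.3) and sdg2-4 (28.7 and 8.10) overlapped Col-0 shoot (16.7 and 31.3). Stem (14.5 and 39.9) overlapped it too, while gcn5, drdd and met1-9 still lay above it. In lists of equal length the 8 other groups overlapped Col-0 shoot.

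The right end of DML2 separated the organs. This site (chromosome 3, 3088433 to 3088733, summit 33 bp outside the gene) had a peak in none of the 4 root and stem libraries, against folds of 3.74 and 4.18 in Col-0 shoot. It was therefore lost in both organs relative to shoot, as were 5.41% of all sites in root and 6.1% in stem. At a −log10 q of at least 10 neither loss was called. Of the 24 mutant shoot libraries 20 had the peak. The folds were highest in met1-9, at 6.56 and 4.84, and lowest in rdd-2 replicate 1, at 2.28. It was missing from drdd replicate 2, nrpd1-3 replicate 1, hda6 replicate 2 and sdg2-4 replicate 2, and in each of these groups the other library had it.

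The rank of the DML2 right end depended on how it was scaled to the list. Counted from the strongest peak, it ranked 16728 and 16851 from the strongest in met1-9 and beyond 17315 in every other mutant library that had it, against 15660 and 14445 in Col-0 shoot. As a percentile of the full list it stood at 22.7 and 27.6 in ros1-4, 30.9 and 31.5 in gcn5 and 56.4 and 36.8 in met1-9, against 23.5 and 34 in Col-0 shoot. On this scale both gcn5 libraries lay between those of Col-0 shoot and both met1-9 libraries above them. The scale depends on list length, which was greatest in met1-9 replicate 1 (38392 peaks), and no share over all sites was taken for it. With all lists shortened to their strongest 17315 peaks, the site would count as lost in 11 of the 12 mutants, all but met1-9. Under the same shortening 2.39% of all recurrent sites were lost in ros1-4, 1.44% in rdd-2, 1.55% in drdd, 2.18% in nrpd1-3 ros1-4, 1.99% in nrpd1-3, 2.47% in gcn5 ros1-4, 1.54% in gcn5, 2.25% in hda6 ros1-4, 1.75% in hda6, 3.16% in sdg2-4 ros1-4, 2.34% in sdg2-4 and 4.69% in met1-9. Of 18089 recurrent sites listed in both shortened Col-0 shoot lists, 35 (0.193%) were lost in at least 11 mutants, in comparisons that all share these 2 libraries. The number of 11 was taken from this site itself, and no share was taken for sites of like rank, so the share is no test. The call of no loss in mutants therefore rests on the full lists, which are longer in most mutants than in Col-0 shoot (20477 and 21873 peaks).

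**Figure D3:**
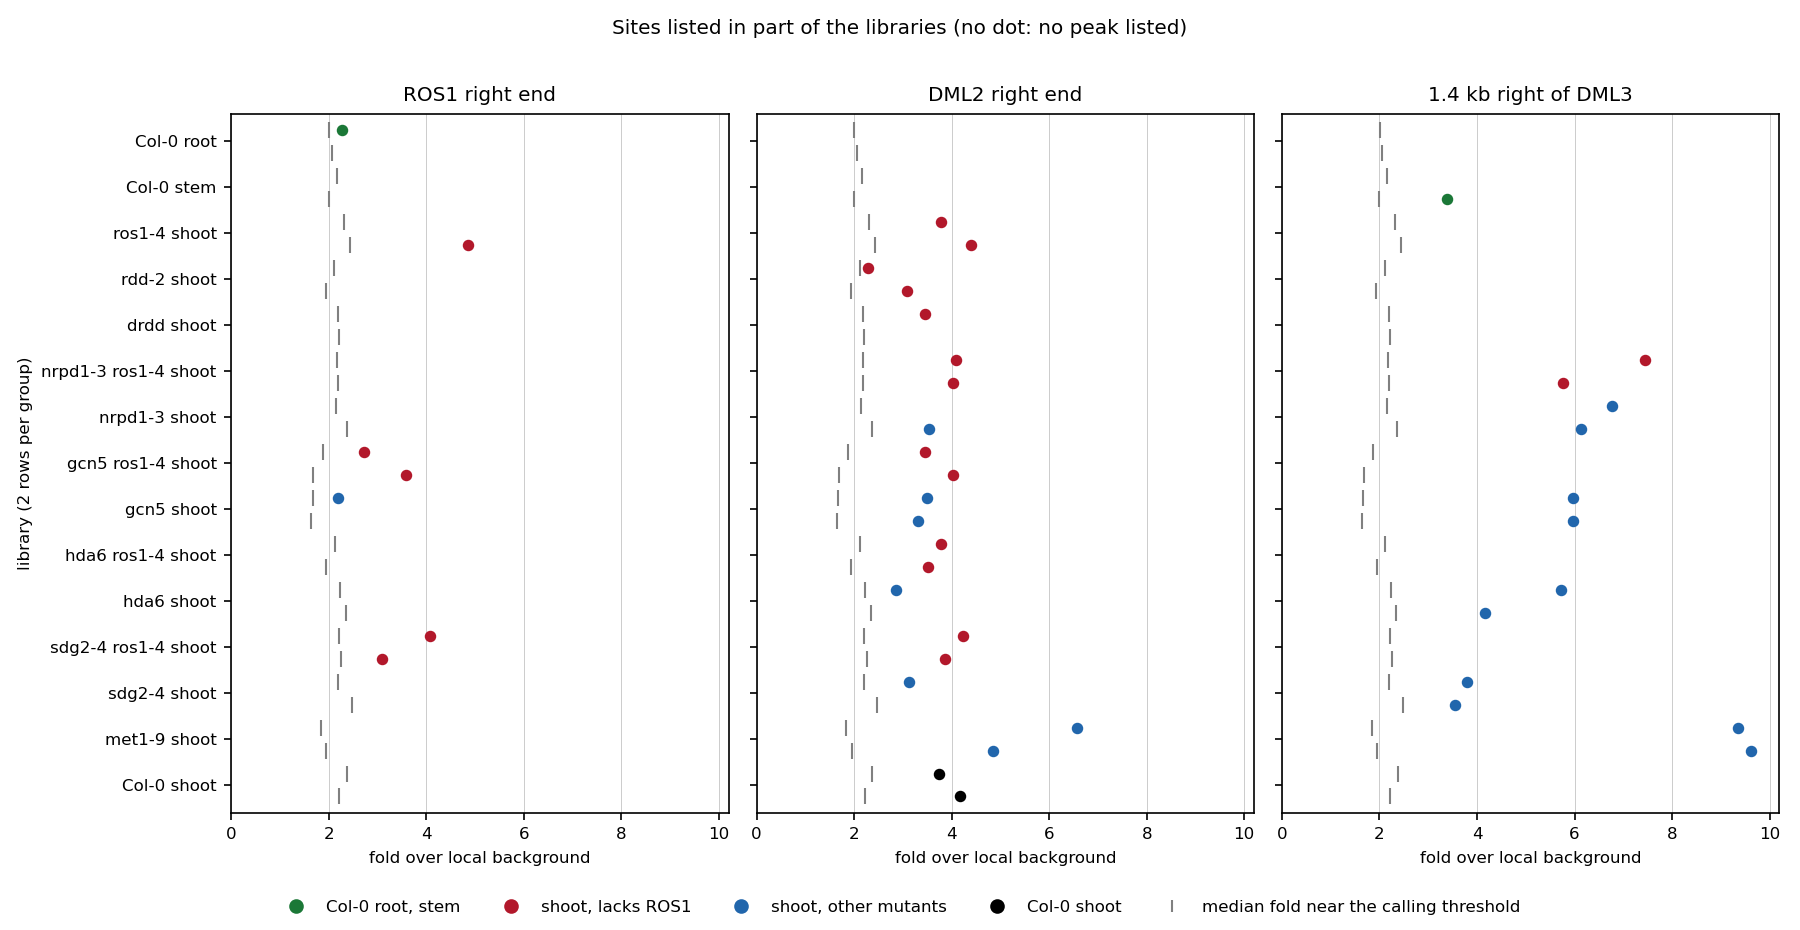
Fold over local background (x) of the peak at the ROS1 right end, the DML2 right end and a site 1371 bp to the right of DML3, in each of 30 libraries (y, 2 rows per group, Col-0 shoot lowest); a dot is a listed peak, no dot means none, and the grey tick is the library's median fold near the calling threshold. The ROS1 right end is listed in 7 libraries, the DML2 right end in 22 and in no root or stem library, and the DML3 neighbour in 13.

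Farther out, the DML2 outer left flank (chromosome 3, 3080647 to 3080947) had a peak in 4 libraries, with folds of 3.31 in sdg2-4 ros1-4 replicate 1, 6.02 in gcn5 replicate 2 and 3.19 and 4.22 in stem. In stem and gcn5 replicate 2 it was covered by a wide peak that also held the left-flank site. It counted as gained in stem relative to Col-0 shoot (4.64% of sites) and as lost in root relative to stem (3.92%). The gain in stem was not called at a −log10 q of at least 10 or with sites reaching 250 bp to either side.

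DML3 had no recurrent site. Its 3 peaks all came from met1-9. In both met1-9 libraries a peak inside the neighbour CCoAOMT1, a gene of lignin synthesis, ran on to 956 and 949 bp from DML3 and so just met the 1 kb limit. In the 28 other libraries the same peak ended 1173 to 1304 bp away, just outside it. The third peak lay in the gene body (window at chromosome 4, 16314844 to 16315144) in met1-9 replicate 1 with a fold of 2.18. Of 27444 protein-coding genes, 240 (0.875%) likewise had a peak in each met1-9 library and in none of the 28 others, whereas 26% had none in either Col-0 shoot library and 51.2% had one in all 30.

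Just beyond the 1 kb limit lay 4 more recurrent sites, and 1 of them, to the right of DML3, varied with genotype. It lies at chromosome 4, 16320797 to 16321097, 1371 bp from DML3, and overlaps AT4G03365, annotated as a non-coding RNA. As it was singled out after its values were seen, it is described with no test. Folds were 7.45 and 5.76 in nrpd1-3 ros1-4, 6.77 and 6.13 in nrpd1-3, 5.98 and 5.96 in gcn5, 5.73 and 4.17 in hda6, 3.79 and 3.56 in sdg2-4, 9.36 and 9.62 in met1-9 and 3.38 in stem replicate 2. Neither library of ros1-4, rdd-2, drdd, gcn5 ros1-4, hda6 ros1-4, sdg2-4 ros1-4, root or Col-0 shoot had a peak there.

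Among shoot libraries the DML3 neighbour site thus had a peak in 2 of 14 without ROS1 and in 10 of 12 with it. The exceptions formed whole groups: nrpd1-3 ros1-4 had the peak without ROS1, and Col-0 shoot lacked it with ROS1. The site was gained in 6 mutants relative to Col-0 shoot, in comparisons that all share its 2 libraries. No share over all sites was taken for gains in 6 mutants or for the split by ROS1. The gcn5, hda6 and sdg2-4 doubles all lost the site relative to their singles. Of the 42611 recurrent sites 3.83%, 0.634% and 0.709% were lost in these 3 comparisons, and 24 (0.0563%) in all 3. The choice of these 3 was read off this site itself, so the last share is no test. Median folds near the calling threshold in the doubles were 1.88 and 1.68 (gcn5 ros1-4), 2.12 and 1.94 (hda6 ros1-4) and 2.21 and 2.26 (sdg2-4 ros1-4). Such a median is no limit of detection. The hda6 and sdg2-4 libraries come from other number ranges than their doubles, so preparation and allele cannot be told apart for them; the part of list depth was not tested. The 3 other sites beyond the limit, 1449 bp right of DML2, 1420 bp left of DML3 in CCoAOMT1 and 1326 bp left of DME, had a peak in all 30 libraries.

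Over the 12 comparisons of a mutant with Col-0 shoot, 0 of the 9 sites were lost in any, and the ROS1 right end was gained in 2. Of all recurrent sites 1.61% were lost in ros1-4, 1.12% in rdd-2, 1.37% in drdd, 1.53% in nrpd1-3 ros1-4, 1.45% in nrpd1-3, 0.69% in gcn5 ros1-4, 0.176% in gcn5, 0.58% in hda6 ros1-4, 1.69% in hda6, 1.09% in sdg2-4 ros1-4, 1.56% in sdg2-4 and 0.699% in met1-9. Loss was thus rare in the whole genome too, and 0 of 9 sites does not set these genes apart. Gains were more frequent, at 3.17% in ros1-4, 3.09% in rdd-2, 3.19% in drdd, 4% in nrpd1-3 ros1-4, 2.91% in nrpd1-3, 16.7% in gcn5, 9.94% in hda6 ros1-4, 3.25% in hda6, 2.56% in sdg2-4 and 15.1% in met1-9, where 0 of the 9 sites were gained. No demethylase site was called in rdd-2 against ros1-4 (1.65% lost and 2.38% gained over all sites) or in drdd against rdd-2 (1.86% lost and 1.74% gained). Of the 4 comparisons of a double with its single, 3 called 0 of the 9 sites. The sdg2-4 pair, where preparation and allele cannot be told apart, called the ROS1 right end. Gains over all sites were 2.45% in the nrpd1-3 pair, 0.878% in the gcn5 pair and 5.79% in the hda6 pair, and losses in the nrpd1-3 pair 1.68%.

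For each gene, the protein-coding genes with the most similar rank over the 30 libraries were found by Spearman's rho, as a description of lists that share depth and preparation. Closest to ROS1 were AT5G41170 (rho 0.70), AT3G28500 (0.69) and AT3G12870 (0.68). DME was closest to RPT5A (0.73), CYP98A3 (0.73) and AT2G40860 (0.72), and DML2 to BEE3 (0.77), TUB2 (0.74) and DL1C (0.74). Each set was the top of 22782 genes compared (22783 for DML2). CYP98A3 and AT2G40860 had the same median (82.0), highest percentile (93.1) and met1-9 values, so they may not be separate observations. The rank of a gene was that of its strongest peak. For DME this was the right-flank peak, which also covers part of SIR and differs little in percentile between lists. For ROS1 it was the left-end peak, which also overlaps AT2G36480, so neither rank can be given to the gene alone. DML3 tied at a rho of 1 with 80 genes, since its peaks occur in met1-9 alone; the first by identifier were AT1G19394, TAR1 and AT1G23915.

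Of 17 other genes of active demethylation, 16 had a recurrent site. In the 12 mutants 3 of the 16 lost a site in at least 1 comparison and 6 gained one (18.8% and 37.5%), beside 10.3% and 46.5% of all 24145 genes with a site. In root 1 lost and 2 gained a site (9.49% and 21.2% of all genes), and in stem 3 lost and 0 gained one (12% and 7.69%).

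The gene called most often was ZDP, the phosphatase that trims the gap left by the glycosylase. A site of it was gained in 9 mutants, with folds from 2.89 in nrpd1-3 replicate 2 to 4.96 in hda6 ros1-4 replicate 1. This site had a peak in 22 of the 30 libraries. All calls relative to Col-0 shoot share its 2 lists, and no share over all sites was taken for gains in several mutants. MBD9, a methyl-binding-domain protein tied to chromatin remodelling, gained different sites in different groups. The site at chromosome 3, 172986 to 173286 was gained in gcn5 ros1-4, gcn5, met1-9 and root. In root the same peaks, with folds of 4.92 and 3.61, also covered the adjacent site at 172665 to 172965, so this is no separate gain. The site at 182235 to 182535 was gained in nrpd1-3 (folds of 2.29 and 2.86), gcn5 ros1-4 (1.88 and 1.83) and gcn5 (4.67 and 4.33). The gcn5 ros1-4 folds lay close to the median folds near the calling threshold of these libraries (1.88 and 1.68). APE1L, the endonuclease of the same repair step, gained one in 4 mutants, with folds of 2.24 to 4.27. IDM1, a histone acetyltransferase that helps to target ROS1, gained the site at chromosome 3, 5045889 to 5046189 in gcn5 ros1-4 and gcn5. Its folds were low, at 2.23 and 2.31 in gcn5 ros1-4 and 2.52 and 2.77 in gcn5. The site at 5046341 to 5046641 was gained in met1-9, with folds of 3.88 and 2.53. In gcn5 it was covered by the same peaks as the first IDM1 site, so this is no separate gain there. MET18, of the iron-sulfur cluster assembly that the glycosylases need, gained a site in gcn5, sdg2-4 ros1-4 and root, where its folds were 6.58 and 6.89. ROS3, an RNA-binding protein of ROS1 targeting, was called as often as IDM1 and MET18, but through losses, in nrpd1-3, root and stem. The site lost in both root and stem had folds of 6.58 and 3.80 in Col-0 shoot.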

How the data were processed

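ATAC-seq peak lists of 30 libraries were used, 1 list per library. Per the submitters' processing notes, reads were handled with FastQC, BWA, SAMtools and GATK on TAIR10 and peaks were called with MACS2, with no versions; reads were not analysed here and sequencing depth is unknown. Each line carries a fold, which the authors' caller made as a ratio of summit pileup to local background. The authors also deposited the caller's −log10 p and −log10 q, and the lowest −log10 q in any list was 2.00. The score deposited by the authors is a rounded multiple of −log10 q and was not used.

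Sites were windows reaching 150 bp to either side of the strongest summits, without overlap; 42611 of 48484 were recurrent. A peak counted when it met a site by at least 1 bp. Gene positions come from a table of assembly TAIR10.1; 68.5% of recurrent sites lay outside genes there, against 44.3% after a shift of 1000 bp either way. Allele contrasts used exact permutation over groups with Benjamini-Hochberg adjustment over all elements, checked on simulated data. The p-values of the allele contrasts measure the spread between shoot groups, which are different genotypes. Labels do not say whether replicates were separate plants, so the spread within a group may be technical. Replicate numbers did not pair libraries (correlations of −0.154 to 0.165 over 105 pairs of groups). Genes, lists and tests were chosen with earlier results of these data known. The genes named are the 4 demethylase genes, the 3 genes of most similar rank for each, and up to 5 pathway genes called in most comparisons; the site beside DML3 and ROS3 were added after their values were seen. Python 3.11.15, numpy 2.4.6, pandas 2.3.3 and scipy 1.17.1 were used.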

Additional observations from a re-analysis of the deposited data

How the results depend on the processing

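Reported counts were 0 sites lost and 2 gained over the 12 mutants, 2 lost and 1 gained over root and stem, and 4 open in all libraries. With lists of equal length the mutants lost 14 and gained 0 (1.44% to 4.69% of all recurrent sites lost and 1.26% to 4.86% gained per mutant), and the DML2 right end turned to −33.3 points in the ROS1 contrast (exact permutation p = 0.192); fewer peaks enter by construction, and the ROS1 right end, without a peak there, gave no value. At a −log10 q of at least 10 the mutants lost 1 and gained 0, and root and stem lost 0 and gained 0. Requiring a peak to cover at least 150 bp of a site left 1 gain in mutants, in gcn5 ros1-4. Sites reaching 250 bp to either side left 0 gains in root and stem. Flanks of 2000 bp gave 8 gains in mutants and 7 sites open in all libraries, 6 of the gains being the site beside DML3, and no flank gave 0 gains in root and stem and 1 open site. Leaving out 1 library at a time gave 0 to 2 losses and 2 to 3 gains in mutants, 1 to 2 gains and 2 losses in root and stem, and 4 open sites. Losses became 1 without ros1-4 replicate 1, drdd replicate 1, nrpd1-3 replicate 2, gcn5 ros1-4 replicate 1, either hda6 replicate or sdg2-4 ros1-4 replicate 1, and 2 without sdg2-4 replicate 1 or met1-9 replicate 1; gains in root and stem became 2 without root replicate 2. The ROS1 right end differed by 19.0 to 35.7 points in these runs. In both allele contrasts 0 sites passed in the alternatives run, which shows no stability, since the reported contrasts allow no p below 0.000583 (ROS1) and 0.0128 (DML2 and DML3). The replicate block gave 0 losses and 2 gains in mutants and 2 losses and 1 gain in root and stem, the same as without it by construction, so it is no check. Peak lists of unequal and unknown depth limit every call of presence near the calling threshold.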
